A study of Mus musculus with 24 samples.

Results

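Wound tissue of diabetic control mice was compared between day 14 and day 7, with 3 RNA sequencing libraries at each day, which made 6 of the 24 libraries of the series and 6 of its 18 wound libraries. All 6 carried the label of a diabetic control and were chosen by their titles, and no hydrogel library entered the contrast. The wound libraries also held 3 diabetic controls at day 1 and 9 diabetic wounds treated with the Fmoc-KYF-AgNCs-3S1C-Hyd2 hydrogel at days 1, 7 and 14, which is a peptide gel with silver nanoclusters and a hydrogenase. The titles of these 9 treated libraries carry the label TEOA, and those of the controls the label Dia. The strain, sex and age of the mice, the way diabetes was induced and the wound model are not given in the sources used here. The labels do not say whether each replicate was its own animal. The p-values therefore measure library-to-library spread, part or all of which may be technical. That spread was estimated jointly over the 6 groups of wound libraries, hydrogel groups included. Their coefficients of variation ran from 4.69% to 55.7%, so it is not the spread of the 6 compared libraries alone.

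Skin closes a wound in overlapping phases. Inflammatory cells clear the site first, then fibroblasts and new vessels build granulation tissue while keratinocytes migrate over it from the wound edge and from hair follicles, and later the vessels regress and the collagen matrix is remodelled. Diabetes slows these steps. Beneath the mouse dermis lie a layer of adipocytes, which store fat and secrete hormones such as leptin, and a thin sheet of skeletal muscle, and the growing hair follicle brings its own keratins, Wnt and hedgehog signals, pigment cells and sebaceous glands. RNA of a whole tissue piece mixes all of these cells, and fewer cells of a type cannot be told apart from less RNA per cell.

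Total counts were 12.8 M to 13.6 M at day 7 and 17.4 M to 18.4 M at day 14, and 21916 to 23565 gene symbols per library had at least 1 count. The 3 day 7 libraries were nearly alike, with a coefficient of variation of 4.69% against 52.8% at day 14, and a median chi-square per gene of 0.648 to 0.793 between pairs, where sampling noise alone gives 0.455. Day 14 replicate 1 stood apart from the other 2 libraries of its day. Its Spearman correlation with each day 7 library was 0.949, against 0.900 and 0.870 with day 14 replicates 2 and 3, which reached 0.973 with each other. In a principal component analysis of the 18 wound libraries, with 40.5% of the variance on the first axis, it lay on that axis at -78, beside the day 7 libraries at -85.1 to -87.5 and away from replicates 2 and 3 at 50 and 79.3. In 11410 of the 17592 genes tested its level was nearer to the day 7 mean than to the mean of the other 2 day 14 libraries. The labelled wound tissue held defining markers of skin and the layers below it. Krt5 and Krt14 of the epidermis, Col1a1 of the dermis, Adipoq of fat and Myh4 of muscle were present in each of the 6 libraries, the lowest of these values being 21.7 CPM for Adipoq, where CPM are counts scaled to a common library size with TMM.

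Of 17592 genes tested, 2146 passed the edgeR quasi-likelihood F test at a Benjamini-Hochberg adjusted p below 0.05 (12.2%), of which 1113 were higher at day 14 (6.33%) and 1033 lower (5.87%). The median log2 fold change over all genes tested was 0.09. Without day 14 replicate 1, 4765 of 18127 genes passed (26.3%), 2592 of them higher and 2173 lower, and 2051 were genes that had passed with all libraries. When any of the other 5 libraries was left out the count was 769 to 964. Each of these fits also took its spread from the hydrogel libraries. In fits without them, 1292 of 15896 genes passed with the 6 compared libraries alone and 252 of 16529 with the 9 control libraries alone. A call kept in each leave-one-out fit can still be lost there, as for Krt14, Col1a2 and Sqle, which passed in neither. List counts below are to be read beside the shares over all genes in the same fit, which also rose without day 14 replicate 1. When the 3 near-identical day 7 libraries were summed to 1 sample no gene passed and 1683 had an unadjusted p below 0.05, so each call below rests on taking the 3 day 7 libraries as separate samples. The mean levels of the fat, blood vessel and acute-phase lists were lower in every day 14 library, whereas those of the epidermis, hair follicle and pigment cells were high in day 14 replicates 2 and 3 and mostly near the day 7 level in replicate 1, as the plot of gene lists by library shows. The suprabasal list was above day 7 in replicate 1 as well.

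**Figure D1:**
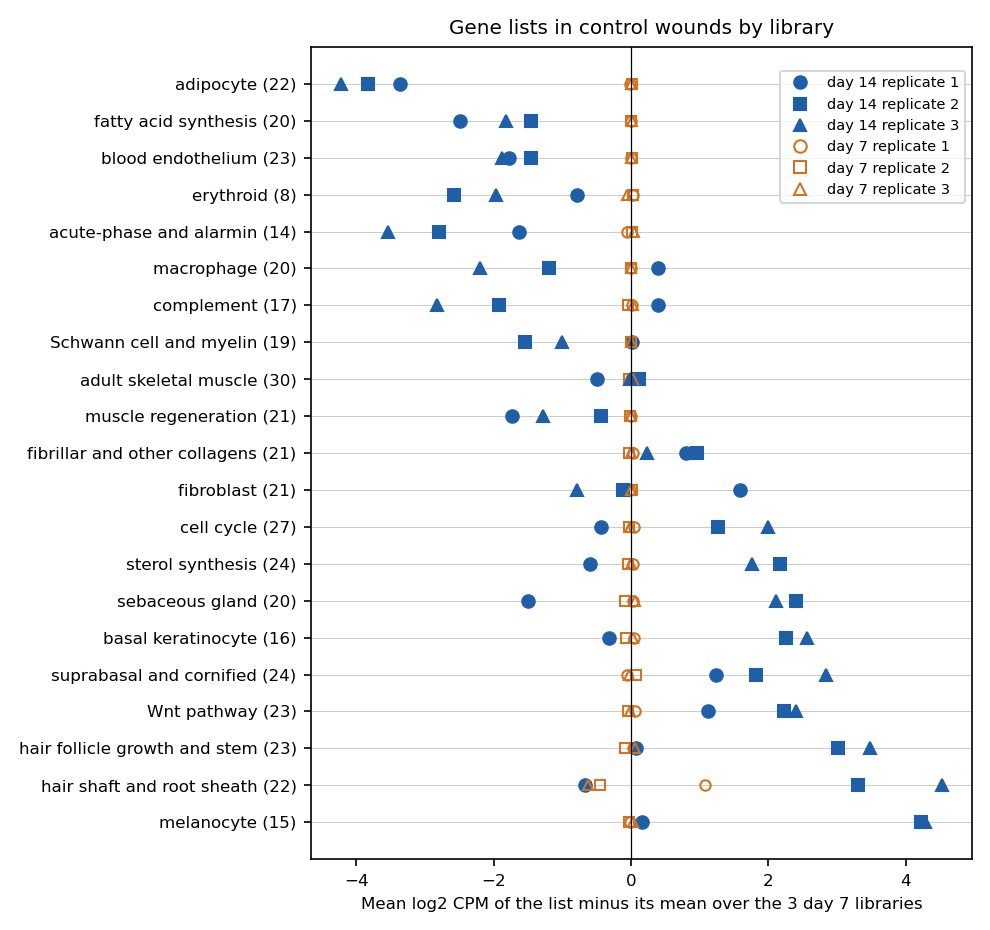
Mean log2 CPM of 21 gene lists in each of the 6 control wound libraries, minus the list's mean over the 3 day 7 libraries (x axis, log2), with the number of genes tested in brackets. Open symbols are day 7 and filled symbols day 14. The adipocyte list lies left of 0 in each day 14 library, and the melanocyte and hair follicle lists lie far right in day 14 replicates 2 and 3 while replicate 1 lies at the day 7 level.

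Of the 50 gene lists, the adipocyte list was the most uniformly lower. Of 22 tested, 19 fell and none rose, and all 22 were lower in every day 14 library than in any day 7 library, where such a separation held for 33.6% of all genes tested in either direction and for 18.5% in this one. The median log2 fold change was -4.02. Without day 14 replicate 1 it was -4.53 with 19 past the test, and none of the 22 genes had replicate 1 nearer to day 7. Leaving out each of the other libraries kept 13 to 15 of the 19 calls, the fewest without day 14 replicate 2 or 3. The fit of the 6 compared libraries alone gave 20 calls and that of the 9 control libraries alone 5. The summed level of the list was 59208 to 60071 CPM at day 7 and 6692, 5163 and 3828 CPM in day 14 replicates 1 to 3. The day 1 controls spanned 11811 to 92243 CPM.

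Lep, the gene of the hormone leptin that signals fat stores to the brain, lies on chromosome 6 at 29060220 to 29073877 of GRCm38. Its promoter is shown because it was the 1 of 16 adipocyte promoters in the RefSeq table that held the palindrome TTGCGCAA, a sequence C/EBP factors of adipocytes are known to bind, found on either strand in 0.185% of the promoters of 27025 symbols. The 250 bases before its start are chr6:29059971-29060220 on the plus strand, with the palindrome in capitals.
Lep: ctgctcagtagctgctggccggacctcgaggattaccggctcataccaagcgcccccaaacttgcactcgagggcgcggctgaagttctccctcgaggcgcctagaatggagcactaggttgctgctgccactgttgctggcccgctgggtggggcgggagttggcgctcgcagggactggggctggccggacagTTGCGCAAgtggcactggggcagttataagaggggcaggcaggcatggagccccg
The looser C/EBP form ATTGCNNAA was in 2 of 16, against 2.24% of all. Such a match is a description of letters, and neither binding nor its absence was measured.

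Lep stood at 27.7, 28.7 and 26.0 CPM at day 7 and at 0.348, 0.814 and 0.412 CPM at day 14 (replicates 1 to 3). All day 14 libraries were low and the groups did not overlap. The log2 fold change was -5.67 ± 0.56 (SE, adjusted p = 0.00017), and it was -5.46 without day 14 replicate 1. Lep kept its call when each of the 6 libraries was left out (adjusted p 5.1e-05 to 0.00213).

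Adrb3, the beta-3 adrenergic receptor through which nerves trigger fat breakdown, went from 121, 119.7 and 122 CPM to 2.79, 1.03 and 1.65 CPM (log2 fold change -6.06 ± 0.97, adjusted p = 0.00222). Thrsp, a nuclear protein of lipogenic cells, went from 2101, 2113 and 2147 CPM to 36.5, 13.4 and 12.7 CPM (-6.67 ± 1.00, adjusted p = 0.00144). Both were low in all 3 day 14 libraries and kept their calls in each leave-one-out fit.

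Dgat2, which adds the last fatty acid of a triglyceride, was at 521, 548 and 558 CPM at day 7 and at 14.7, 20.5 and 18.5 CPM at day 14 (-4.92 ± 0.66, adjusted p = 0.000881). Mogat1, an enzyme of an earlier step of triglyceride formation, was at 19.4, 17.6 and 18.4 CPM and at 0.348, 0.214 and 0.0458 CPM (-6.51 ± 1.10, adjusted p = 0.00298). Pnpla2, the lipase that opens triglyceride breakdown, was at 1680.2, 1647 and 1661 CPM and at 388, 192 and 136 CPM (-2.80 ± 0.45, adjusted p = 0.00229). So synthesis and breakdown enzymes of stored fat were lower together, again with no overlap and with the call kept in each leave-one-out fit.

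Adipoq, the adipocyte hormone adiponectin, stood at 1343 to 1348 CPM at day 7 and at 122, 32.8 and 21.7 CPM at day 14 (-4.51 ± 0.98, adjusted p = 0.0102). It was highest in day 14 replicate 1, and without that library the log2 fold change was -5.62. Its call was lost without day 14 replicate 2 or 3 (adjusted p = 0.0506 and 0.0509). Angptl8, a secreted inhibitor of lipoprotein lipase that is induced by feeding, was at 28.1 to 29.5 CPM and at 1.33, 0.257 and 0.137 CPM (-5.68 ± 1.40, adjusted p = 0.0174). It also lost its call without day 14 replicate 2 or 3 (adjusted p = 0.0764 and 0.0813), and its log2 fold change was -7.12 without replicate 1.

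Pck1, which makes the glycerol backbone of triglycerides in fat, went from 518 to 524 CPM down to 63.5, 14.6 and 13.3 CPM (-4.09 ± 0.81, adjusted p = 0.00638, and -5.21 without day 14 replicate 1). In the fatty acid synthesis list 9 of 20 genes fell and none rose (median -0.97), with 8 or more of those calls kept in each leave-one-out fit. Mlxipl, the carbohydrate-responsive factor ChREBP that drives lipogenic genes, fell from 73.9 to 78.8 CPM to 16.5, 27.6 and 22.5 CPM (-1.78 ± 0.26, adjusted p = 0.00139). Me1, malic enzyme, which supplies NADPH for lipid synthesis, fell from 574 to 605 CPM to 89.9, 211 and 123 CPM (-2.05 ± 0.36, adjusted p = 0.00334). Of the 14 thermogenic fat genes 3 fell and 1 rose, against 5.87% and 6.33% of all genes tested. There were 6 calls without day 14 replicate 1 and 1 without any other library. Ucp1, the uncoupling protein of brown and beige fat, was at 4.61 to 5.89 CPM and at 0.290, 0 and 0.0458 CPM (-5.62 ± 1.51, adjusted p = 0.0264). Its call was lost without any library other than day 14 replicate 1 (adjusted p up to 0.111), and its log2 fold change without that replicate was -7.49.

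**Figure D2:**
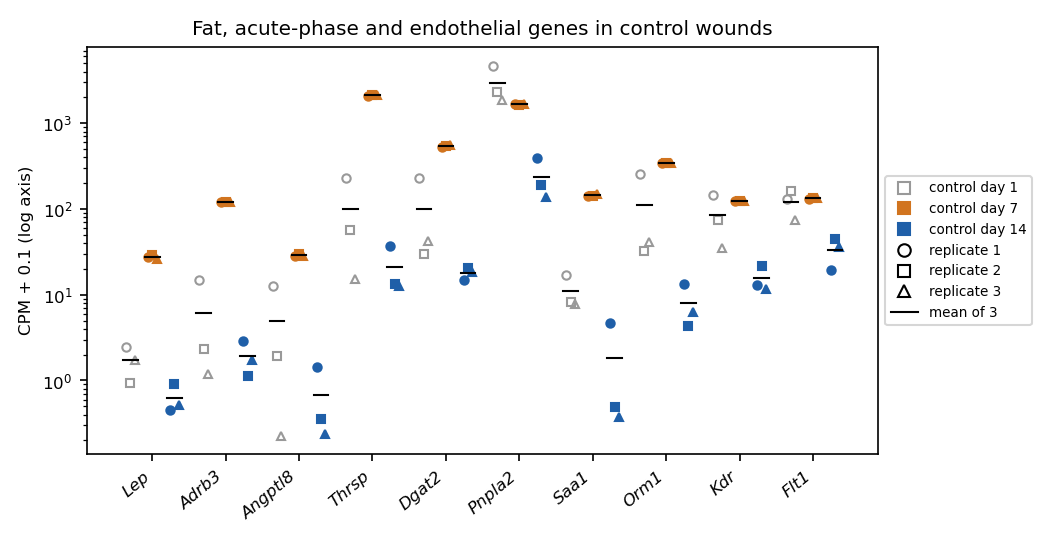
CPM plus 0.1 on a log axis for 10 genes that fell between day 7 and day 14 in control wounds, with one symbol per library, the mean of 3 as a bar, and the day 1 controls in grey. The 3 day 7 symbols of each gene lie on top of each other, and each of the 3 day 14 symbols lies below them (Lep at 0.348 to 0.814 CPM against 26.0 to 28.7 CPM).

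Acute-phase genes fell in 6 of 14 cases and none rose (median -0.96), and the 6 calls were kept in every leave-one-out fit. The secreted proteins of this list mark inflammation, and several are made by adipocytes as well as by liver. Saa1, serum amyloid A, stood at 143, 142 and 148 CPM at day 7 and at 4.53, 0.385 and 0.275 CPM at day 14. The log2 fold change was -6.43 ± 0.86 (adjusted p = 0.000881), and it was -8.74 without day 14 replicate 1, the highest of its group. Saa2, its near-identical neighbour on chromosome 7, went from 214, 224 and 219 CPM to 3.48, 0.428 and 0.0916 CPM (-7.41 ± 0.98, adjusted p = 0.000827, and -9.66 without replicate 1). The genes share sequence, so the split between the pair is uncertain.

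Orm1, the plasma carrier orosomucoid, fell from 344 to 347 CPM to 13.2, 4.24 and 6.23 CPM (-5.45 ± 0.70, adjusted p = 0.000677, and -6.04 without day 14 replicate 1). Lcn2, lipocalin 2, which withholds iron from bacteria, fell from 347, 357 and 351 CPM to 26.5, 34.7 and 43.0 CPM (-3.34 ± 0.35, adjusted p = 0.000269). Lcn2 was lower in all 3 day 14 libraries, and those lay close together. The alarmin S100a8 did not pass. It stood at 48.7 to 56.2 CPM at day 7 and at 235, 98.0 and 21.9 CPM at day 14 (1.16 ± 0.73, adjusted p = 0.33), above day 7 in replicates 1 and 2 and below it in replicate 3.

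Blood endothelial genes were lower at day 14 as a group. Of 23 tested, 14 fell and none rose (median -1.79). Of the 23, 21 were lower in each day 14 library than in any day 7 library, against 18.5% of all genes tested. Leaving out single libraries left 6 to 15 calls among the 23, the fewest without day 14 replicate 3 and the most without replicate 1. The fit of the 6 compared libraries alone gave 17 calls and that of the 9 control libraries alone 5. Day 14 replicate 1 was nearer to day 7 in only 3 of the 23 genes. Kdr, the main receptor for VEGF on vessels (chromosome 5, 75932827 to 75978458), stood at 124 CPM in each day 7 library and at 12.9, 21.8 and 11.7 CPM at day 14. It was 8.01-fold lower (adjusted p = 0.000881), with no overlap between the days.

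Cldn5, a tight-junction protein of endothelium, went from 298, 290.0 and 303 CPM to 43.6, 33.1 and 29.5 CPM (-3.07 ± 0.44, adjusted p = 0.00139). Flt1, the decoy VEGF receptor, went from 131, 135 and 134 CPM to 19.5, 44.3 and 36.1 CPM (means 133 and 33.3 CPM, adjusted p = 0.00201). Ptprb, a phosphatase of vascular junctions, went from 147 to 160.5 CPM to 32.5, 63.8 and 36.3 CPM (-1.79 ± 0.33, adjusted p = 0.00471). These 4 genes kept their calls in each leave-one-out fit. Pecam1, the adhesion molecule CD31, fell from 263 to 272 CPM to 64.2, 104 and 61.7 CPM (-1.81 ± 0.45, adjusted p = 0.0185), but its call was lost without any 1 of the day 7 libraries or without day 14 replicate 3 (adjusted p up to 0.086).

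Of 17 angiogenic factors 1 fell and none rose (median -0.76), near the 5.87% of all genes tested that fell. Without day 14 replicate 1 the number that fell was 8 of 17, against 2173 of all 18127 genes in that fit. Vegfa, the main vessel growth factor, stood at 71.7 to 78.3 CPM at day 7 and at 30.3, 46.2 and 56.0 CPM at day 14, with no overlap and no call (-0.76 ± 0.36, adjusted p = 0.196). Lymphatic and pericyte genes gave 1 call in 23 tested, against 12.2% of all genes. Adipocyte RNA was lower in the same 3 libraries as given above, and its part in the endothelial result was not tested.

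Red cell genes fell in 5 of 8 cases (median -1.96). Hba-a1, an alpha globin that has a near-identical copy, stood at 407 to 419 CPM at day 7 and at 169, 48.7 and 66.0 CPM at day 14 (-2.13 ± 0.52, adjusted p = 0.0167). Alas2, the first enzyme of haem synthesis in red cells, stood at 23.1 to 26.1 CPM and at 9.57, 4.11 and 3.80 CPM (-2.10 ± 0.52, adjusted p = 0.0171). Without day 14 replicate 1 their log2 fold changes were -2.85 and -2.65. The red cell calls depended on single libraries, since 0 of the 5 were kept without day 7 replicate 2 or 3 or without day 14 replicate 2 or 3, and 2 without day 7 replicate 1.

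Matrix genes rose in part. Of 21 collagen genes 5 rose and none fell (median 1.19), and 10 were higher in each day 14 library than in any day 7 library, against 15.1% of all genes tested. Leaving out single libraries left 1 to 6 calls, the fewest without day 7 replicate 2 or 3. The fit of the 6 compared libraries alone gave 2 calls and that of the 9 control libraries alone 0. The summed level of the list was 11856 to 11957 CPM at day 7 and 48439, 22967 and 13796 CPM in day 14 replicates 1 to 3. By this sum day 14 replicate 1 was farthest from day 7, whereas by the list's mean log2 CPM, at 8.08, 8.24 and 7.52 against 7.25 to 7.31 at day 7, replicate 2 was.

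Col1a1, a chain of type I collagen, the main fibre of dermis and scar (chromosome 11, 94936224 to 94953042), stood at 2369, 2297 and 2300.0 CPM at day 7 and at 12119, 6546 and 4003 CPM at day 14. It rose in every day 14 library with a log2 fold change of 1.70 ± 0.38 (adjusted p = 0.0109), which was 1.19 without replicate 1, and its call was lost without day 7 replicate 2 or 3 (adjusted p = 0.0506 and 0.0511). Col1a2, the other chain, went from 802 to 824 CPM to 4093, 3814 and 1182 CPM (3.73-fold, adjusted p = 0.00843) and kept its call in each leave-one-out fit. It did not pass in the fits of the 6 compared or the 9 control libraries alone (adjusted p = 0.0643 and 0.0944). Col3a1, the finer type III collagen of early granulation tissue, did not pass. It was at 5372 to 5464 CPM at day 7 and at 26258, 6711 and 4681 CPM at day 14 (1.21 ± 0.64, adjusted p = 0.237), so that replicate 1 was high and replicates 2 and 3 lay on both sides of day 7, and without replicate 1 the log2 fold change was 0.07.

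A pair of enzymes that finish collagen outside the cell rose and kept their calls in each leave-one-out fit. Bmp1, the proteinase that trims procollagen, went from 98.2 to 101 CPM to 314, 236 and 169 CPM (1.27 ± 0.21, adjusted p = 0.00229). Loxl2, a lysyl oxidase that cross-links collagen, went from 56.1 to 61.4 CPM to 238, 150.1 and 88.0 CPM (1.43 ± 0.31, adjusted p = 0.00926). In the fits of the 6 compared and the 9 control libraries alone Loxl2 did not pass (adjusted p = 0.0575 and 0.0835). Bmp1 passed in the first only (adjusted p = 0.0293 and 0.0528). The other 18 of the 20 genes of this list did not pass.

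Wound fibroblast genes rose in 5 of 20 cases and none fell (median 0.74), against 6.33% of all genes tested that rose. There was 1 call without day 7 replicate 1 or 3, 2 without day 7 replicate 2, 3 without day 14 replicate 2 and 6 without day 14 replicate 1 or 3. Lrrc15, a membrane protein of activated fibroblasts, stood at 41.9, 41.5 and 40.9 CPM at day 7 and at 136, 199 and 131 CPM at day 14 (3.74-fold, adjusted p = 0.00144), high in each day 14 library and called in each leave-one-out fit. Acta2, the smooth muscle actin of myofibroblasts, was at 278 to 290.3 CPM and at 124, 179 and 188 CPM without a call (-0.80 ± 0.39, adjusted p = 0.207). Postn, periostin of the wound matrix, was at 808 to 840.4 CPM and at 1867, 1206 and 928 CPM without a call (0.69 ± 0.57, adjusted p = 0.473). Of 21 general fibroblast genes 4 rose and none fell with all libraries, and 1 call was left without any 1 of the day 7 libraries, but without day 14 replicate 1 the counts were 3 and 8 and the median turned from 0.85 to -0.36. The summed level of that list was 17679 CPM in replicate 1 against 5061 and 3387 CPM in replicates 2 and 3, and 11569 to 11974 CPM at day 7.

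Among 25 matrix proteases and inhibitors 5 rose and 1 fell, against 6.33% and 5.87% of all genes tested. There were 2 or 3 calls without any 1 of the day 7 libraries and 4 to 7 without a day 14 library. Mmp14, a membrane-bound collagenase, went from 107 to 118 CPM to 364, 305 and 137 CPM (1.25 ± 0.27, adjusted p = 0.00924). Timp4, a metalloproteinase inhibitor, fell from 84.8 to 90.4 CPM to 14.2, 6.94 and 6.37 CPM (-3.25 ± 0.48, adjusted p = 0.00144). Both kept their calls in each leave-one-out fit. In the fits of the 6 compared and the 9 control libraries alone Timp4 passed (adjusted p = 0.00451 and 0.0303) and Mmp14 did not (adjusted p = 0.0823 and 0.0967). Mmp13, an interstitial collagenase, rose from 2.38 to 3.14 CPM to 8.53, 19.4 and 7.42 CPM (2.04 ± 0.51, adjusted p = 0.0176), but lost its call without any day 7 library or without day 14 replicate 2 (adjusted p up to 0.097). Mmp9, a gelatinase linked to slow healing in diabetes, was at 7.81 to 8.45 CPM and at 9.23, 15.6 and 7.51 CPM, with overlapping groups (0.41 ± 0.63, adjusted p = 0.724).

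Epidermal genes rose, and in the basal list the rise was carried by day 14 replicates 2 and 3. Of 16 basal keratinocyte genes 8 rose and none fell (median 1.85), and without day 14 replicate 1 the count was 13. Replicate 1 was nearer to day 7 in 15 of the 16. The summed level of the list was 1134 to 1146 CPM at day 7, 842 CPM in day 14 replicate 1, and 5258 and 7360.5 CPM in replicates 2 and 3. Leaving out any library other than day 14 replicate 1 left 5 calls, the same number each time. In fits of the 6 compared or the 9 control libraries alone 1 call was left.

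Krt14, the keratin of dividing basal cells (chromosome 11, 100203162 to 100207548), stood at 119.9, 116 and 114 CPM at day 7 and at 152, 1613 and 2139 CPM at day 14. Its log2 fold change was 3.48 ± 0.64 (adjusted p = 0.00437), and 4.01 without replicate 1. The day 1 controls, at 635 to 1485 CPM, also lay above each day 7 library. Krt5, its partner keratin, went from 198 to 204 CPM to 210.4, 1493 and 2309.6 CPM (2.74 ± 0.55, adjusted p = 0.00729, and 3.25 without replicate 1). In both genes replicate 1 was just above day 7, the other 2 libraries were high, and the call was kept in each leave-one-out fit.

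Cdh3, the P-cadherin of basal and follicle keratinocytes, went from 0.813 to 1.19 CPM to 1.33, 38.4 and 32.8 CPM (4.54 ± 0.87, adjusted p = 0.00531), and Sfn, an epithelial 14-3-3 protein, from 13.9 to 15.2 CPM to 19.0, 301 and 361 CPM (3.96 ± 0.78, adjusted p = 0.00622). Both genes kept their calls in each leave-one-out fit.

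In the suprabasal and cornified list 14 of 24 genes rose and 1 fell (median 2.40). Of the 24, 19 were higher in each day 14 library than in any at day 7, against 15.1% of all genes tested. Replicate 1 was nearer to day 7 in 10 of the 24. The list's mean log2 CPM was 1.43 to 1.56 at day 7 and 2.72, 3.31 and 4.33 in day 14 replicates 1 to 3. Leaving out single libraries left 6 to 16 calls, the fewest without day 7 replicate 1 or 3 or day 14 replicate 3. The fit of the 6 compared libraries alone gave 14 calls and that of the 9 control libraries alone 2. Aloxe3, a lipoxygenase of the skin barrier, went from 0.474 to 0.818 CPM to 1.51, 12.2 and 20.3 CPM (4.14 ± 0.74, adjusted p = 0.00396). Sbsn, suprabasin of the differentiated layers, went from 30.2 to 31.8 CPM to 126, 159 and 186 CPM (2.35 ± 0.50, adjusted p = 0.00899), raised in all 3 day 14 libraries. Both kept their calls in each leave-one-out fit. Krt10, the early differentiation keratin, was at 18.8 to 21.0 CPM and at 65.9, 36.4 and 83.2 CPM with no overlap and no call (1.65 ± 0.82, adjusted p = 0.209).

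Of 20 genes of keratinocytes at the wound edge, 5 rose and 1 fell, with a median of 2.54. The number that rose was 12 without day 14 replicate 1, but 3 genes passed without replicate 2, and 1 without replicate 3 or without any 1 of the day 7 libraries. Krt17, a keratin of activated and follicle keratinocytes, was at 22.3 to 26.5 CPM at day 7 and at 7.25, 577 and 1127 CPM at day 14, so replicate 1 lay below day 7 and the groups overlapped (4.58 ± 1.15, adjusted p = 0.0188, and 5.16 without replicate 1). Its call was lost without any day 7 library or without day 14 replicate 3 (adjusted p up to 0.0818). Krt6a did not pass, at 23.1 to 23.7 CPM and at 7.77, 84.8 and 93.9 CPM (1.41 ± 0.66, adjusted p = 0.183). Epgn, the EGF receptor ligand epigen, rose from 0.271 to 0.419 CPM to 1.04, 11.8 and 26.3 CPM (5.28 ± 0.90, adjusted p = 0.00313) and kept its call in each leave-one-out fit.

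**Figure D3:**
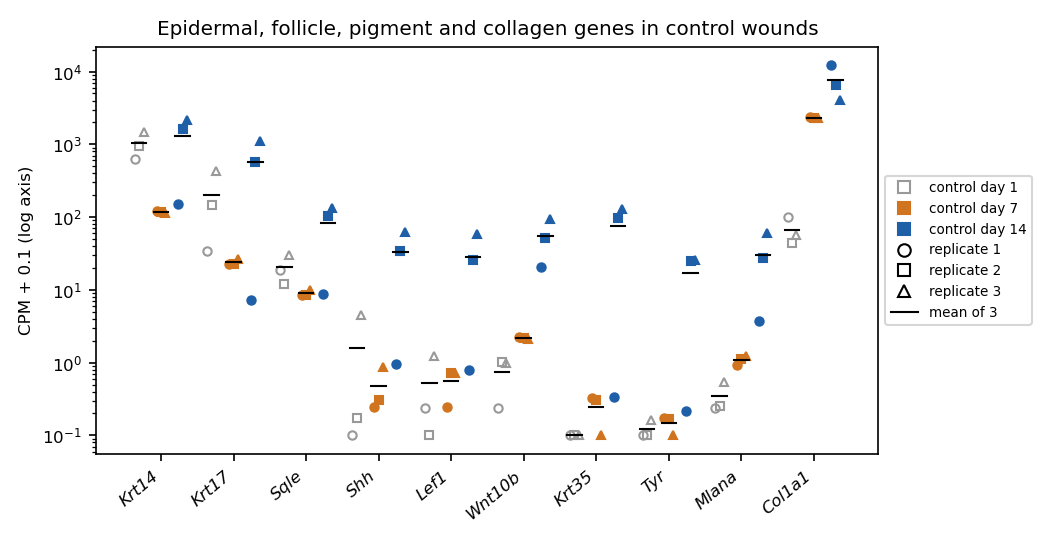
CPM plus 0.1 on a log axis for 10 genes that rose between day 7 and day 14 in control wounds, with one symbol per library, the mean of 3 as a bar, and the day 1 controls in grey. In all but Wnt10b, Mlana and Col1a1 the circle of day 14 replicate 1 lies at or near the day 7 symbols or below them, and the square and triangle of replicates 2 and 3 lie high (Krt14 at 152 CPM against 1613 and 2139 CPM).

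Genes of the growing hair follicle rose. Of 23 genes of follicle growth and stem cells 16 rose and none fell (median 2.49), and all 23 had a positive fold change. Leaving out single libraries left 8 to 20 calls, the fewest without day 14 replicate 3 and the most without replicate 1, which was nearer to day 7 in 20 of the 23. The Wnt list, which shares genes with it, gave 13 of 23 that rose and none that fell (median 2.16, and 7 to 16 calls with single libraries left out). In the fit of the 6 compared libraries alone the follicle and Wnt lists had 2 and 5 calls. In that of the 9 control libraries alone each had 1. Wnt ligands and hedgehog start each round of hair growth, and Lef1 carries the Wnt signal to genes.

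Wnt10b, an early ligand of hair growth (chromosome 15, 98770712 to 98778150), stood at 2.16, 2.10 and 2.02 CPM at day 7 and at 20.7, 51.8 and 92.6 CPM at day 14. Every day 14 library was high, replicate 1 included. The log2 fold change was 4.71 ± 0.54 (adjusted p = 0.000394), and the call was kept in each leave-one-out fit (adjusted p 6.27e-06 to 0.00381). Lef1 went from 0.149, 0.610 and 0.628 CPM to 0.696, 26.0 and 58.1 CPM (5.90 ± 1.19, adjusted p = 0.00725, and 6.47 without replicate 1). Shh, sonic hedgehog, the signal of the hair bud, went from 0.149, 0.203 and 0.768 CPM to 0.870, 34.6 and 62.8 CPM (6.42 ± 1.76, adjusted p = 0.0282). Shh lost its call without any library other than day 14 replicate 1 (adjusted p up to 0.114) and had a log2 fold change of 7.00 without that replicate.

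Notum and Nkd2 of the Wnt list, which both inhibit Wnt signals, rose. Notum, an enzyme that inactivates Wnt ligands, went from 0.149, 0 and 0.140 CPM to 0.232, 9.38 and 15.8 CPM (6.39 ± 1.19, adjusted p = 0.00466), and Nkd2, an inhibitor within the cell, from 3.73 to 5.43 CPM to 8.76, 23.7 and 31.8 CPM (2.31 ± 0.42, adjusted p = 0.00437). Both kept their calls in each leave-one-out fit. Notum did not pass the filter on low counts in fits of the 6 compared or the 9 control libraries alone, so it was not tested there. Dlx3, a factor of the hair matrix, went from 0.559 to 0.677 CPM to 0.348, 91.2 and 195 CPM (7.22 ± 1.34, adjusted p = 0.0047), below day 7 in replicate 1 and high in the others. Edar, the ectodysplasin receptor, had 2 counts over day 7 and 216 over day 14, a ratio of 73.6 with an exact 95% counting interval of 20.1 to 612. The Wnt response letters CTTTGAT were in 0 of 17 Wnt list promoters, against 3.72% of all promoters. The letters CTTTGAA were in 5 of 18 hair shaft and root sheath promoters, against 5.19% of all.

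Hair shaft and root sheath keratins rose in 11 of 22 cases and none fell (median 3.32). Krt28, an inner root sheath keratin, stood at 0.446, 0.203 and 0.140 CPM at day 7 and at 0, 84.1 and 152 CPM at day 14 (8.21 ± 1.53, adjusted p = 0.0047). Krt35, a hair shaft keratin, stood at 0.223, 0.203 and 0 CPM and at 0.232, 95.7 and 129 CPM (8.99 ± 1.66, adjusted p = 0.00562). Day 14 replicate 1 held almost none of either, and the other 2 libraries carried the whole rise. Both calls were kept in each leave-one-out fit, but each of those fits held hydrogel libraries. In fits of the 6 compared or the 9 control libraries alone neither gene passed the filter on low counts, so neither was tested. The list's calls ranged from 3, without day 7 replicate 2 or 3, to 13, without day 14 replicate 1, and were 0 in the fits without hydrogel libraries. Day 7 replicate 1 held a summed 23.7 CPM of this list against 5.28 and 5.59 CPM in the other day 7 libraries.

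Melanocyte genes rose with the follicle genes. Of 15 tested, 11 rose and none fell (median 5.85), and 9 to 12 passed when single libraries were left out. In fits of the 6 compared or the 9 control libraries alone, without hydrogel libraries, 1 passed. Replicate 1 was nearer to day 7 in 13 of the 15. The promoters of Tyr, Tyrp1 and Dct, the 3 enzymes that make melanin, are shown because each holds the M-box TCATGTG, the letters MITF is known to bind. It was found on either strand in 6 of the 10 melanocyte promoters in the RefSeq table (also in Slc24a5, Mc1r and Trpm1) and in 3.72% of the promoters of 27025 symbols. The windows are the 250 bases before each start on GRCm38, chr7:87493513-87493762 on the minus strand for Tyr, chr4:80833963-80834212 on the plus strand for Tyrp1 and chr14:118052247-118052496 on the minus strand for Dct, each written 5′ to 3′ on the gene's strand with the M-box, or its reverse complement, in capitals.
Tyr: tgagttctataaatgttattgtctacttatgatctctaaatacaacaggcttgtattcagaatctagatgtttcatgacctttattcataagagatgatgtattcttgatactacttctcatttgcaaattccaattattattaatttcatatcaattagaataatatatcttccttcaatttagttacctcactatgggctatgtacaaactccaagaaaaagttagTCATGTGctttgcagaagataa
Tyrp1: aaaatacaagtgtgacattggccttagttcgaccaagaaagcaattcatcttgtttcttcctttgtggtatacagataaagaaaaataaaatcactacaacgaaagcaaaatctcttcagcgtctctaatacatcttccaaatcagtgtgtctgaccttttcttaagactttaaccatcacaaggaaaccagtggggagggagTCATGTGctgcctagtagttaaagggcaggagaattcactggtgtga
Dct: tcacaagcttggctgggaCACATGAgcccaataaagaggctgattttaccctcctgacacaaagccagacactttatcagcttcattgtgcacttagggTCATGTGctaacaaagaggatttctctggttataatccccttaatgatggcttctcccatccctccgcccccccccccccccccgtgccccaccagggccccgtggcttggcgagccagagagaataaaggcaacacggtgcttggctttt
Tyr and Tyrp1 hold 1 copy close to the start, and Dct holds 2 copies farther from it.

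Tyr, tyrosinase, the first enzyme of melanin synthesis, stood at 0.0744, 0.0677 and 0 CPM at day 7 and at 0.116, 25.1 and 25.8 CPM at day 14. With 2 counts over day 7 and 1151 over day 14 the ratio was 392 (exact 95% counting interval 108 to 3242), and the adjusted p was 0.00474. Tyrp1 went from 1.71, 1.29 and 1.12 CPM to 1.39, 135 and 101 CPM (5.85 ± 1.14, adjusted p = 0.00591, and 6.43 without replicate 1). Dct, chosen after its values were seen for its promoter, went from 1.26, 1.35 and 1.12 CPM to 0.754, 171 and 122 CPM (6.29 ± 1.51, adjusted p = 0.0156). In all 3 genes replicate 1 was at the day 7 level and replicates 2 and 3 were high. Tyr did not pass the filter on low counts in fits of the 6 compared or the 9 control libraries alone, so it was not tested there.

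Mlana, a melanosome protein, differed in that replicate 1 was also above day 7, at 3.66 CPM with 27.2 and 60.4 CPM in the others, against 0.818 to 1.12 CPM at day 7 (4.94 ± 0.78, adjusted p = 0.00194). Pmel, the protein of the melanosome fibrils, went from 0.818 to 1.08 CPM to 1.57, 124 and 84.4 CPM (6.14 ± 0.98, adjusted p = 0.00217). Oca2, a melanosome transporter, had no count at day 7 and 0.116, 7.49 and 10.5 CPM at day 14, so with a floor of 3 counts for the summed day 7 group it was at least 92.2-fold higher. Like Tyr, it was not tested in the fits without hydrogel libraries. Mitf itself, the factor named above, did not pass and was chosen here after its values were seen, at 21.7 to 24.2 CPM at day 7 and at 54.8, 26.6 and 32.2 CPM at day 14 (0.74 ± 0.26, adjusted p = 0.0802).

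Sterol synthesis genes rose in 13 of 24 cases and none fell (median 1.46), all but 2 with replicate 1 nearer to day 7. Without day 14 replicate 1 the number was 18, without replicates 2 and 3 in turn it was 2 and 7, and without any 1 of the day 7 libraries it was 1. The fit of the 6 compared libraries alone gave 1 call, lower and not among the 13, and that of the 9 control libraries alone 0. In the skin these enzymes serve keratinocytes and sebaceous glands. The promoters of Hmgcs1 and Msmo1 are shown for the CCAAT box (ATTGG on the other strand), the letters NF-Y is known to bind next to SREBP, which were in 16 of the 16 sterol promoters in the RefSeq table, those of genes without a call included, and in 37.5% of all promoters. Hmgcs1, chosen after its values were seen, was the 1 of the 16 that held the sterol element TCACNCCAC, against 1.22% of all. The windows are chr13:119690101-119690350 on the plus strand for Hmgcs1 and chr8:64733579-64733828 on the minus strand for Msmo1, with both motifs in capitals.
Hmgcs1: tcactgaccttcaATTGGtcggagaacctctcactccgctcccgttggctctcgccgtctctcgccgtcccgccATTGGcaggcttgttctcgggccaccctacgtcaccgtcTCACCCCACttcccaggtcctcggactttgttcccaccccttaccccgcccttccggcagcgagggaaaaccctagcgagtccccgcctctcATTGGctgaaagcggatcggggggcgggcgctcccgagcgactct
Msmo1: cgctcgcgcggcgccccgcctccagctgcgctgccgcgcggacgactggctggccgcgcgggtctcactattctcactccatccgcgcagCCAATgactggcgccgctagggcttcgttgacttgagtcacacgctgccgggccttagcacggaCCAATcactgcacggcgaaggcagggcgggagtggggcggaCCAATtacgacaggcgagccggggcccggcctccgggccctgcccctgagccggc
The sterol element of Hmgcs1 lay between 2 of its 3 CCAAT boxes.

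Sqle, squalene epoxidase, a rate-setting step of cholesterol synthesis, was at 8.40, 8.47 and 9.78 CPM at day 7 and at 8.59, 104 and 133 CPM at day 14 (3.20 ± 0.64, adjusted p = 0.00691), and kept its call in each leave-one-out fit. It did not pass in the fits of the 6 compared or the 9 control libraries alone (adjusted p = 0.0818 and 0.0906). Msmo1, a sterol demethylase, was at 19.6, 22.6 and 21.7 CPM and at 16.7, 415 and 334 CPM (3.58 ± 0.79, adjusted p = 0.0108), and lost its call without any 1 of the day 7 libraries (adjusted p up to 0.053). Hmgcs1, the synthase at the head of the pathway, was at 62.0 to 66.2 CPM and at 44.6, 302 and 349 CPM (1.87 ± 0.49, adjusted p = 0.0226). Replicate 1 did not exceed day 7 in Msmo1 or Hmgcs1, and the groups overlapped in all 3 genes. In the sebaceous list 9 of 20 genes rose and 2 fell, with replicate 1 nearer to day 7 in 15 of the 20. The 11 calls became 2 without any 1 of the day 7 libraries or without day 14 replicate 2, 4 without replicate 3 and 14 without replicate 1. Acsbg1, an acyl-CoA synthetase of the gland, rose from 5.62 to 6.17 CPM to 9.34, 173 and 120.0 CPM (4.08 ± 0.72, adjusted p = 0.00351) with its call kept in each leave-one-out fit. It too did not pass in the fits without hydrogel libraries (adjusted p = 0.0557 and 0.0683). The 2 that fell were Dgat2, given above with the fat genes, and Apoc1, an apolipoprotein, at 385 to 409.8 CPM and at 59.4, 108 and 189.9 CPM (-1.74 ± 0.45, adjusted p = 0.0225), which lost its call without any day 7 library or without day 14 replicate 2 (adjusted p up to 0.0834).

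Cell cycle genes rose in 10 of 27 cases and all 27 had a positive fold change (median 1.23). Without day 14 replicate 1 the number was 25, and without any 1 of the other 5 libraries it was 0 or 1. Mki67, the marker of dividing cells, stood at 35.9, 35.0 and 35.0 CPM at day 7 and at 21.0, 147 and 322 CPM at day 14 (2.21 ± 0.61, adjusted p = 0.0287). Replicate 1 lay below day 7 and the others above it. The log2 fold change was 2.74 without replicate 1, and the call was lost without any other library (adjusted p up to 0.2).

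Macrophage genes gave no call in 20 tested with all libraries (median -0.51). Without day 14 replicate 1, 9 fell and none rose (median -1.75), and replicate 1 was nearer to day 7 in all 20. The summed level was 3806 to 3831 CPM at day 7, 6356 CPM in day 14 replicate 1, and 2237 and 841 CPM in replicates 2 and 3. Adgre1, the mouse macrophage marker F4/80, was at 49.2 to 52.3 CPM and at 44.6, 20.2 and 4.44 CPM (-1.15 ± 0.76, adjusted p = 0.355). Cd68, a lysosomal protein of macrophages, was at 113 to 117 CPM and at 148, 82.2 and 45.3 CPM (-0.32 ± 0.41, adjusted p = 0.655). Ptprc, the leukocyte marker CD45, was at 47.2 to 50.3 CPM and at 46.7, 34.0 and 16.1 CPM (-0.59 ± 0.45, adjusted p = 0.43). Day 14 replicate 1 was thus at or above the other 2 day 14 libraries in each of these 3 genes.

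Of 16 genes of alternative macrophage activation 2 fell and none rose (median -0.58), and without day 14 replicate 1 the number that fell was 7 (median -1.51), with replicate 1 nearer to day 7 in 14 of the 16. Leaving out any other library left 1 or 2 calls. Of 15 genes of inflammatory activation 2 rose and 1 fell (median 0.54), against 5 and 3 without day 14 replicate 1 and 1 or 2 calls without any other library. Retnla, a secreted protein of alternatively activated macrophages, fell from 45.7 to 49.9 CPM to 19.3, 5.18 and 4.31 CPM (-2.31 ± 0.45, adjusted p = 0.00564, and -3.32 without replicate 1), and kept its call in each leave-one-out fit. Arg1, arginase of the same state, overlapped between the days, at 7.86 to 9.97 CPM and at 6.96, 10.4 and 8.34 CPM (-0.01 ± 0.58, adjusted p = 0.997). Nos2, the inducible nitric oxide synthase, fell from 10.5 to 12.6 CPM to 1.86, 4.20 and 1.97 CPM (-2.08 ± 0.47, adjusted p = 0.0113), a call lost without day 14 replicate 3 (adjusted p = 0.0565). Ptgs2, the inducible cyclooxygenase, rose from 1.19 to 1.82 CPM to 15.6, 4.11 and 3.66 CPM (2.43 ± 0.53, adjusted p = 0.00954, and 1.44 without replicate 1), a call lost without day 7 replicate 1 (adjusted p = 0.0506).

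Complement genes fell in 2 of 17 cases with all libraries (median -0.53) and in 14 without day 14 replicate 1 (median -2.15). The 2 were Clu, clusterin, an inhibitor of complement, which went from 92.1 to 117 CPM to 44.2, 25.1 and 18.9 CPM (-1.80 ± 0.35, adjusted p = 0.00568), and Cfd, adipsin. Cfd, complement factor D, is also the most fat-specific gene of the list, and went from 16026 to 16407 CPM to 1971, 342 and 212 CPM (-4.27 ± 1.09, adjusted p = 0.0203, and -5.87 without replicate 1). Clu kept its call in each leave-one-out fit and Cfd kept it only without day 14 replicate 1 (adjusted p up to 0.0861 in the others).

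Neutrophil genes gave 1 that rose and 1 that fell of 14, near the 6.33% and 5.87% of all genes tested. The attractants of neutrophils gave 2 that rose of 9 and none that fell (median 1.80). Without any 1 of the day 7 libraries or without day 14 replicate 2, each of these lists had 0 or 1 call, and without replicate 1 each had 3. Cxcl1, a main attractant, stood at 1.12, 1.42 and 0.559 CPM at day 7 and at 7.31, 17.2 and 11.6 CPM at day 14 (3.53 ± 0.58, adjusted p = 0.00256). It was raised in every day 14 library and called in each leave-one-out fit. Cxcl5, a related attractant, was at 0.203 to 0.628 CPM and at 1.68, 17.3 and 2.75 CPM (4.25 ± 1.15, adjusted p = 0.0271), led by replicate 2, and its call was lost without that library or any 1 of the day 7 libraries (adjusted p up to 0.162). Il1b, interleukin 1 beta, overlapped between days at 4.68 to 4.94 CPM and 4.18, 13.0 and 3.66 CPM (0.54 ± 0.66, adjusted p = 0.645). Of 20 T and NK cell genes 3 fell and 2 rose, against 5.87% and 6.33% of all genes tested. There was 1 call without any 1 of the day 7 libraries, 2 without day 14 replicate 3 and 3 without replicate 2. Without replicate 1 there were 7, against 26.3% of all genes in that fit. The call kept in each leave-one-out fit was Cd247, the zeta chain of the T cell receptor, from 7.88 to 8.24 CPM to 0.812, 2.01 and 1.92 CPM (-2.33 ± 0.44, adjusted p = 0.00507).

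Skeletal muscle genes were split into a regeneration and an adult list. Of 21 genes of muscle regeneration 4 fell and none rose (median -1.32), against 5.87% of all genes tested that fell. Without overlap between the days 12 of the 21 were lower and 3 higher, against 18.5% and 15.1% of all genes. In this list 1 gene passed without any 1 of the day 7 libraries or without day 14 replicate 3. Of 30 adult muscle genes 2 fell and none rose (median 0.29), against 5.87% of all genes, and 0 passed without any library other than day 14 replicate 1. The difference between the lists was not tested. Myl4, a myosin light chain of embryonic and regenerating muscle, fell from 304 to 307 CPM to 72.4, 101 and 52.6 CPM (-2.02 ± 0.42, adjusted p = 0.00796) and kept its call in each leave-one-out fit. Myh3, embryonic myosin, fell from 366 to 379 CPM to 14.4, 84.3 and 27.0 CPM (-3.16 ± 0.86, adjusted p = 0.0275), a call lost without any 1 of the day 7 libraries or without day 14 replicate 3 (adjusted p up to 0.117). Of the adult genes Myh4, the fast myosin, was at 5528 to 5684 CPM and at 2640.5, 4956 and 8735 CPM (-0.04 ± 0.80, adjusted p = 0.981), and Ckm, muscle creatine kinase, was at 768 to 802 CPM and at 1527, 2651 and 2154 CPM (1.43 ± 0.79, adjusted p = 0.26). The 2 adult genes that fell were Myh7 and Myl2, both of slow and cardiac muscle. Myh7 was at 7.38 to 9.15 CPM with 356 counts and at 0.116, 0.0428 and 0 CPM with 3 counts, a ratio of 174 (exact 95% counting interval 59.1 to 849, adjusted p = 0.0265), and lost its call without any library other than day 14 replicate 1 (adjusted p up to 0.111).

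Nuclear genes of the respiratory chain fell in 7 of 32 cases, and none of the 32 had a positive fold change (median -0.58). Of the 32, 26 were lower in each day 14 library than in any at day 7, against 18.5% of all genes tested. Cox4i1, a subunit of complex IV, went from 1079 to 1114 CPM to 736, 521 and 563 CPM (-0.85 ± 0.22, adjusted p = 0.0215). All 7 calls were kept without day 14 replicate 1, 1 without replicate 3, and 0 without any other library, with adjusted p up to 0.0864 for Cox4i1. Antioxidant genes fell in 4 of 22 cases and none rose (median -0.14), against 5.87% of all genes tested that fell. There were 9 calls without day 14 replicate 1, against 26.3% of all genes, and 2 without day 7 replicate 1 or 2 or day 14 replicate 3. Sod1, the cytosolic superoxide dismutase, went from 732 to 762 CPM to 373, 179 and 189.7 CPM (-1.59 ± 0.30, adjusted p = 0.0052) and kept its call in each leave-one-out fit. Cat, catalase, which removes hydrogen peroxide, went from 539.7 to 544 CPM to 250.1, 187 and 133 CPM (-1.51 ± 0.33, adjusted p = 0.0103), lost without day 14 replicate 3 (adjusted p = 0.0545). None of 32 ribosomal protein genes passed (median 0.36).

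Some of the largest changes lay outside these lists. Igsf21, an adhesion molecule of synapses, had 348 counts over day 7 and 1 over day 14, a ratio of 511 (exact 95% counting interval 91.1 to 20229.9, adjusted p = 0.00365). Gsc, the homeobox factor goosecoid, had 389 counts over day 7 and 2 over day 14, a ratio of 285 (78.5 to 2365, adjusted p = 0.00194). Prodh, the mitochondrial enzyme that breaks down proline, had the lowest adjusted p of the genes named here. It stood at 58.0, 56.7 and 59.8 CPM and at 13.9, 14.2 and 12.3 CPM (-2.11 ± 0.18, adjusted p = 5.57e-05). Crtac1, a matrix protein of cartilage, went from 6.98 to 7.88 CPM to 0.174, 0.300 and 0.183 CPM (-5.04 ± 0.55, adjusted p = 0.000381). In Prodh and Crtac1 the 3 day 14 libraries were low and close together, replicate 1 with the others, and all 4 genes kept their calls in each leave-one-out fit.

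On the higher side, Hes2, a Notch family repressor of epithelia, had no count at day 7 and 0.174, 5.52 and 10.1 CPM at day 14, so with the same floor it was at least 80.2-fold higher. Hes2 did not pass the filter on low counts in fits without hydrogel libraries and was not tested there. Fam83c, a member of a family of kinase-binding scaffolds, went from 0.0698 to 0.446 CPM to 0.580, 9.08 and 18.2 CPM (5.13 ± 0.88, adjusted p = 0.00318). Both kept their calls in each leave-one-out fit. Grhl3, the factor of epidermal barrier and closure, went from 0.149 to 0.271 CPM to 0.638, 8.05 and 12.8 CPM (5.05 ± 1.12, adjusted p = 0.011), a call lost without day 7 replicate 1 or 3 (adjusted p = 0.0546 and 0.0533). Ugt1a1, a glucuronosyltransferase whose symbol shares exons with its gene family, had 1 count over day 7 and 478 over day 14, a ratio of 326 (58.2 to 12891), and lost its call without day 14 replicate 2 or any 1 of the day 7 libraries (adjusted p up to 0.0616). Like Hes2, it was not tested in the fits without hydrogel libraries.

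The change from day 7 to day 14 was also compared with that of the hydrogel wounds, by the test of the difference between both changes. It passed in 302 of 17592 genes (1.72%), 180 with the higher log2 fold change in control wounds and 122 with the lower. The count was 60 to 1106 when single libraries of these 4 groups were left out, highest without control day 14 replicate 1, and 0 with day 7 libraries summed, where 746 had an unadjusted p below 0.05. The adipocyte list had a median of -0.08 in hydrogel wounds against -4.02 in control wounds, and 7 of its 22 genes passed the test of the difference, all lower in control. The mean log2 CPM of the list in hydrogel wounds was 5.74, 5.81 and 5.85 at day 7 and 5.92, 5.72 and 5.50 at day 14, against 9.37 to 9.39 in the control day 7 libraries.

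Lep stood at 0.215, 0.616 and 0.401 CPM at day 7 and at 1.54, 2.00 and 2.11 CPM at day 14 of the hydrogel wounds, where it rose (2.15, adjusted p = 0.012), so the difference was -7.82 ± 0.75 (adjusted p = 0.000412). Adrb3 stood at 1.36 to 1.94 CPM and at 3.32 to 6.28 CPM there (difference -7.69 ± 1.27, adjusted p = 0.0108). Control and hydrogel wounds differed more in these genes at day 7, with 119.7 to 122 CPM of Adrb3 in control, than at day 14. Krt14 was at 2997 to 3101 CPM in hydrogel wounds at day 7 and at 1590.3 to 2161 CPM at day 14, so it rose in control and not past the test in hydrogel wounds (difference 4.20 ± 0.85, adjusted p = 0.0237). Over 21 alternative fits the difference passed in 20 for Lep, in 19 for Adrb3 and in 9 for Krt14, which lost it without any 1 of the 6 hydrogel libraries, the 3 control day 7 libraries or control day 14 replicate 2.

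Of the 9 attractants of neutrophils and related factors, 4 passed the test of the difference, against 1.72% of all genes tested. The number was 2 of 15 genes of inflammatory macrophage activation, 1 of 15 CC chemokines and 0 of 20 macrophage genes. Cxcl1 rose in control wounds and fell in hydrogel wounds, from 3.19 to 7.82 CPM to 1.58 to 2.28 CPM (-1.64, adjusted p = 0.0401, difference 5.17 ± 0.79, adjusted p = 0.00922). Cxcl2, a related attractant without a call in control wounds, fell from 1.79 to 2.00 CPM to 0.0345 to 0.118 CPM in hydrogel wounds (difference 5.13 ± 1.07, adjusted p = 0.027). Arg1 fell from 25.1 to 29.7 CPM to 1.83 to 2.25 CPM there (difference 3.76 ± 0.85, adjusted p = 0.0404). Over 21 alternative fits, single libraries left out included, the difference passed in 20 for Cxcl1, in 9 for Cxcl2 and in 6 for Arg1. Cxcl2 and Arg1 lost it without any 1 of the 6 hydrogel libraries, the 3 control day 7 libraries or control day 14 replicate 2, and Arg1 also without control day 14 replicate 3. The differences of the next 2 genes passed in 20 of the 21. Igfbp3, a carrier of insulin-like growth factors, rose in control wounds from 104 ± 4.09 CPM (SD, n = 3) to 1047, 295 and 120.0 CPM and fell in hydrogel wounds from 450.0 to 457 CPM to 26.6 to 45.3 CPM (difference 5.91 ± 0.76, adjusted p = 0.00275), and its rise in control wounds lost its call without any 1 of the day 7 libraries (adjusted p up to 0.0604). Fbp1, a gluconeogenic enzyme, was at 3.85 to 5.92 CPM in all 6 control libraries and rose from 0.935 to 1.23 CPM to 28.2 to 50.0 CPM in hydrogel wounds (difference -5.24 ± 0.67, adjusted p = 0.00275).

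**Figure D4:**
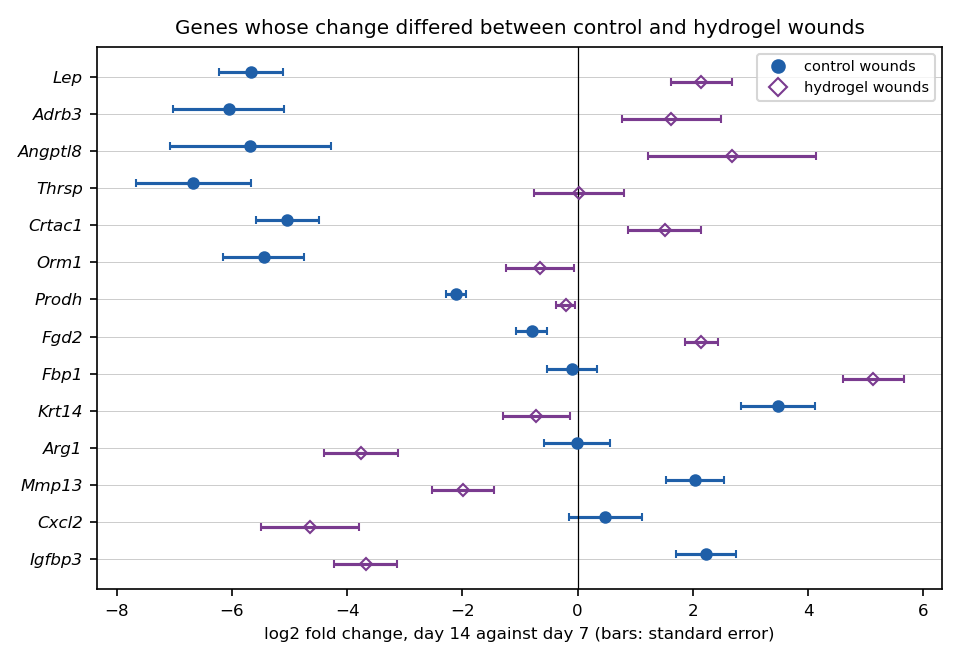
Log2 fold change from day 7 to day 14 (x axis, bars show the standard error) of 14 genes in control wounds (filled circles) and hydrogel wounds (open diamonds), with 3 libraries per group. Lep lies at -5.67 in control and 2.15 in hydrogel wounds, and Igfbp3 at 2.23 and -3.68.

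In some lists few or no genes passed the test of the difference, which passed in 1.72% of all genes tested. A count of 0 in a list of this size is near that share. Blood endothelial genes had medians of -1.79 in control and -1.55 in hydrogel wounds, with 0 of 23 past the test of the difference. Cell cycle genes had medians of 1.23 and 1.98 and also 0 of 27 past it. Hair shaft and root sheath keratins had medians of 3.32 and 8.87, all 22 rose in hydrogel wounds, and 2 of 22 passed the test of the difference, lower in control. A p that misses the threshold does not show that such changes were alike.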

How the data were processed

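Per the submitters' processing notes, reads were handled with Trim Galore 0.6.10, FastQC 0.11.9, HISAT2 2.2.1, SAMtools 1.9 and featureCounts 2.0.6 on mm10. The authors deposited raw counts of read pairs over exons by gene symbol, with GENCODE M25 on GRCm38.p6 and no strand option, per the file headers, so overlapping and antisense genes cannot be told apart. The 18 wound libraries were fitted together in edgeR 4.0.16 (R 4.3.3) with TMM, filterByExpr (minimum count 10, minimum total 15), 6 group means and 12 residual degrees of freedom, and day 14 minus day 7 was tested by the robust quasi-likelihood F test with Benjamini-Hochberg adjustment over 17592 genes. Intervals on count ratios are exact and cover counting error only. Alternatives used DESeq2 1.42.0 and limma 3.58.1.

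Named genes were up to 15 per direction by fold change among those past the test (no overlap, and 5 CPM or more on average at the higher day), up to 4 per list with at least 2 past it, a panel of 24 genes, and up to 6 by the difference from hydrogel wounds. The members and lists were chosen with earlier results of these data known. On simulated counts with the spread of each group, 42% of 4-fold and 3% of 2-fold changes were recovered over 17413 genes. Promoters were the 250 bases before the start in RefSeq, searched on both strands for 8 motifs. RAW264.7 libraries were not used. A gene that the rule names is not reported here.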

Additional observations from a re-analysis of the deposited data

Results flagged for a closer look

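Of the genes named by the rule, the 26 given here changed differently from day 7 to day 14 in control and hydrogel wounds by the edgeR test of the difference itself, with adjusted p from 0.000412 (Lep) to 0.0468 (Angptl8). Up to 6 of the named genes, Lep and Igfbp3 among them, were chosen by the adjusted p of this same test, so their passing followed from the choice. Over all genes tested 1.72% passed. The log2 fold change in control wounds minus that in hydrogel wounds was negative in 12 of them, at -6.68 for Thrsp, -7.69 for Adrb3, -8.36 for Angptl8, -7.82 for Lep, -4.80 for Orm1, -2.37 for Lcn2, -2.30 for Lrrc15, -4.34 for Dgat2, -5.24 for Fbp1, -1.90 for Prodh, -6.55 for Crtac1 and -2.95 for Fgd2. It was positive in 14, at 5.09 for Mpo, 5.17 for Cxcl1, 10.24 for Cxcl5, 2.41 for Socs3, 5.91 for Igfbp3, 4.03 for Mmp13, 4.20 for Krt14, 4.44 for Aloxe3, 4.12 for Casp14, 2.93 for Sbsn, 5.25 for Acsbg1, 3.42 for Errfi1, 5.13 for Cxcl2 and 3.76 for Arg1. With the near-identical day 7 libraries summed, no gene passed this test. The genes were not equally stable over 21 alternative fits. The difference passed in 6 of them for Mpo, Angptl8 and Sbsn, 7 for Aloxe3, 8 for Casp14 and 9 for Socs3 and Krt14. It passed in 12 for Lcn2, 13 for Mmp13 and 17 for Thrsp and Orm1. The number was 19 for Adrb3, Cxcl5 and Lrrc15 and 20 for Lep, Cxcl1 and Igfbp3.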

How the results depend on the processing

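The 2146 genes past the test became 7693 with limma-voom and a weight per library, 406 against a 2-fold minimum, 1292 with the 6 compared libraries alone, 252 with the 9 control libraries and 0 with the day 7 libraries summed (edgeR, 1683 at an unadjusted p below 0.05), and ranged from 769 (without day 7 replicate 3) to 4765 (without day 14 replicate 1) when single libraries were left out. DESeq2 gave 3213, RLE size factors 2176, no filter 1495, a stricter filter 1910 and a weight per group 1766. The share of calls that were higher was 51.9%, against 59.3% with DESeq2, 42.6% with a weight per group, 26.5% with 6 libraries and 20.6% with 9. The 302 genes whose change differed between arms became 1453 with DESeq2, 6764 and 1803 with limma-voom weights per library and per group, 36 against a 2-fold minimum, 0 with day 7 summed (746 unadjusted), and 60 to 1106 when single libraries were left out. Fbln1 alone reversed, with a difference of -0.67 under a weight per library. Same-numbered libraries did not deviate together (r of -0.036, 0.002 and -0.041), and a replicate block gave 2083 and 232 calls. Of 140 named genes past the change, 68 passed in all 6 fits without a single library. The cause of these shifts was not tested. Depth of 12.8 M to 18.4 M counts limits genes with few counts.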
